A study of Rattus norvegicus with 9 samples.

Results

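Ppp2r2b, Map2 and Dlg4 are genes best known from neurons, and their RNA was measured here in whole lung. They were chosen as the Agilent catalogue probes of a custom rat array whose accession belongs to one of these genes, and each of them is read by 1 catalogue probe spotted 10 times (A_44_P242397 for Ppp2r2b, A_44_P111897 for Map2 and A_44_P238314 for Dlg4). They are 3 of the 30 catalogue probes that could be matched to a gene, on an array that holds 38804 probes other than control probes. The lungs came from male Wistar rats for which the labels give an age of 6 to 8 weeks without saying at which time, and which is shorter than the exposure, in 3 groups of 3 rats with 1 array each. The first group was exposed to CS for 90 days and the second to PM2.5 for 90 days. These abbreviations are read here as cigarette smoke and fine particulate matter, which the labels do not spell out, and both serve as models of chronic obstructive pulmonary disease (COPD). The control group inhaled NS, also not spelled out, for 90 days. No transgene, deletion or drug is named for any group, and tissue of the exposed rats was archived after 90, 91 and 92 days (replicates 1, 2 and 3) against 90 days for all control rats. The labels call the replicates biological, and the p-values below measure the spread between these arrays.

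Protein phosphatase 2A removes phosphate groups from serine and threonine. It is built from a catalytic, a scaffold and a regulatory subunit, and the regulatory subunit directs it to its substrates and to places in the cell. Ppp2r2b encodes a regulatory subunit of the B family that is most abundant in brain. Map2 encodes a protein that binds and stabilises microtubules in dendrites. Dlg4 encodes a scaffold of the postsynaptic density that holds glutamate receptors and signalling proteins at excitatory synapses. The lung holds few neurons of its own. It is supplied by sensory and autonomic nerve fibres, with small ganglia along the airways and with neuroendocrine cells in the airway epithelium, and single neuronal genes can also be transcribed at low levels in other cells. In RNA of a whole organ, fewer cells of a type and less RNA per cell cannot be told apart.

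The 250 bases before the transcription start are shown for each gene, because Ppp2r2b on one side and Map2 and Dlg4 on the other gave different patterns across the arrays. The sequences are those of RefSeq on build GRCr8, on the gene's strand and 5′ to 3′, and all 3 genes were matched by symbol. Capitals mark CG dinucleotides, the dinucleotide at which vertebrate DNA can be methylated. RefSeq lists 3 starts for Ppp2r2b on the minus strand of chromosome 18, and the array does not tell which of them the measured RNA came from. Only the window of the most upstream one, chr18:35331616-35331865, is printed below. The others, chr18:35203015-35203264 and chr18:35165017-35165266, are not printed. The Map2 window is chr9:75346440-75346689 and the Dlg4 window is chr10:55239534-55239783, both on the plus strand.
Ppp2r2b: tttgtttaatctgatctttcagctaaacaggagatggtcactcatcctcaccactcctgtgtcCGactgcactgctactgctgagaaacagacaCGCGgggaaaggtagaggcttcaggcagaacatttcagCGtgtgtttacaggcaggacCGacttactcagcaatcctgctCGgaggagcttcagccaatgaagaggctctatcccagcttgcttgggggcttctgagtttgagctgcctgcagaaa
Map2: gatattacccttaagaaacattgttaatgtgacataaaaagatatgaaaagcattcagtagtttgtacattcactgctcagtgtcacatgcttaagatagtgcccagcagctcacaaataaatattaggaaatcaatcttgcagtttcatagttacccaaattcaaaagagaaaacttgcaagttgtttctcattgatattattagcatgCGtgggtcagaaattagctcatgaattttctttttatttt
Dlg4: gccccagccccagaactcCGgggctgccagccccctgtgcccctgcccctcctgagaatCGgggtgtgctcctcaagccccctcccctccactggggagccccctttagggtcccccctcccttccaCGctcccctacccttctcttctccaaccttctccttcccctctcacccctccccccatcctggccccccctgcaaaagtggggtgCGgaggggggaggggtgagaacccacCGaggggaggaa

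The windows differ in base composition. G and C made up 69.2% of the Dlg4 window, 32.0% of the Map2 window and 51.2%, 46.4% and 60.8% of the Ppp2r2b windows from the most upstream start on. The median over all 33469 such windows of the rat table was 51.2%, with 38.0% and 68.4% at the 10th and 90th percentiles, so that Map2 and Dlg4 lay outside that range on opposite sides. CG dinucleotides numbered 5 in Dlg4, 1 in Map2, and 6, 2 and 7 in the Ppp2r2b windows. The windows were searched on both strands for both conserved cores of RE1, the site of the repressor REST that acts on many neuronal genes, as TTCAGCACC and GGACAGCGC. These letters were in none of the 5 windows, and 0.305% and 0.338% of all windows hold them. The GC box, searched as GGGCGG, was also in none of the 5, against 30.5% of all windows. The same held for the box bound by the TATA-binding protein, searched as TATAAA, which 12.9% of all windows hold. TGACG, the half-site of the cyclic AMP response element, was found once, 54 bases before the most downstream Ppp2r2b start, whose window is not printed. Of all windows, 18.2% hold these letters. A match is only a match of letters and not evidence of binding.

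The signals were read from 1-colour Agilent arrays, and a signal is the brightness of a spot after subtraction of its background. The control arrays were brighter in their upper range than the others: the 75th percentile of the signal over probes was 326 to 340 on control arrays, 186 to 209 on CS arrays and 159 to 260 on PM2.5 arrays. They were also more alike, since a probe's SD within its group had a median of 0.08 log2 units there, 0.22 on CS arrays and 0.27 on PM2.5 arrays. Slides were inferred from the scan times in the file headers, and arrays with the same scan time were taken to share a slide. By this rule all 3 control arrays were on a slide of their own, scanned on the second of 2 days. An effect of the slide or the scan day therefore cannot be told apart from a difference between control and exposed lungs. One slide held CS 2 and CS 3 together with PM2.5 1 and PM2.5 2, and CS 1 and PM2.5 3 were each on another. Levels below are log2 signals relative to the 75th percentile of the same array, and differences were tested with limma over 37643 probes with adjustment over all of them. On this scale the median of all probes was 0.45 higher in CS and 0.51 higher in PM2.5 than in control, so each change is also given after quantile normalization, where these medians were 0.06 and 0.07. None of the 44 lung, neuronal, glial, neuroendocrine, muscle and immune markers listed for a check of the tissue was matched to a named probe, and the label of the tissue could not be checked in this way.

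Each of the 3 probes was well above background in 90 of 90 spots, and all 3 passed the filter on dim probes. Most probes passed it: 36450 of 38804 were well above background on all 9 arrays. Only 939 with a value on every array were removed as dim. Of the 90 spots of each probe, 5 were flagged as outliers and left out. The remaining spots of an array agreed closely: their SD was 0.05 to 0.14 log2 units for Ppp2r2b, 0.05 to 0.16 for Map2 and 0.06 to 0.17 for Dlg4. This left a standard error of 0.01 to 0.05 log2 units per array, and that error covers the spots of an array and not the differences between rats. Map2 was the dimmest against its surroundings, with a spot signal of 2.92 to 4.91 times the local background, Dlg4 had 3.26 to 6.73 times and Ppp2r2b 3.32 to 12.4 times.

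**Figure D1:**
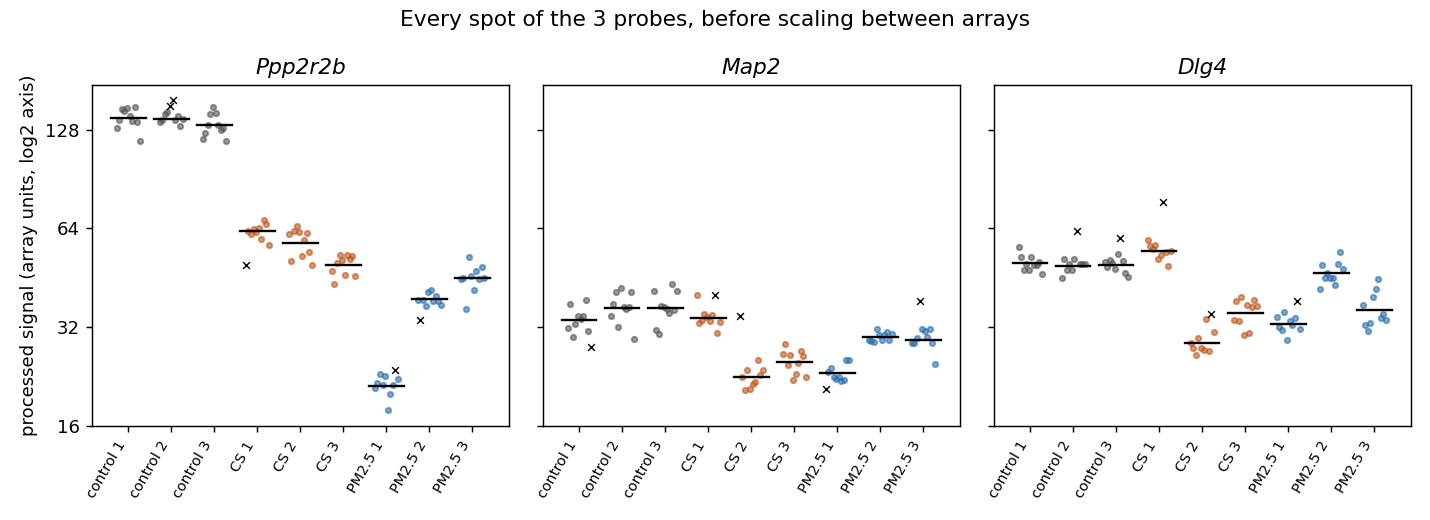
Processed signal (array units, log2 axis) of every spot of the 3 probes on each of the 9 arrays, before any scaling between arrays. Points are spots, crosses are flagged spots that were left out and lines are the means of the log2 signals. The line of Ppp2r2b lies highest on the control arrays (131.9 to 138.7) and lowest on PM2.5 1 (21.1), while the lines of Map2 (22.5 to 36.7) and Dlg4 (28.7 to 54.4) span narrower ranges.

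Ppp2r2b was lower in the lungs of both exposed groups than in control lungs, and its levels followed the order control, CS, PM2.5. Its signal before scaling was 138.7, 138.3 and 131.9 on control arrays 1 to 3, 62.7, 57.7 and 49.4 on CS arrays 1 to 3, and 21.1, 39.0 and 45.0 on PM2.5 arrays 1 to 3. No 2 of the groups overlapped, and PM2.5 1 was the lowest of the 9 arrays. The share of all probes without overlap is not given here for unscaled signals or for ranks within an array. Without it, such a separation does not set a gene apart from other probes. Relative to the 75th percentile, the levels were −1.34, −1.36 and −1.36 in control, −1.80, −1.91 and −1.98 in CS and −2.98, −2.21 and −2.58 in PM2.5. The groups stood in the same order without overlap, although the scaling moved PM2.5 3 below PM2.5 2. On this scale 13.0% of all probes were lower in CS than in control without overlap, and 13.1% were lower in PM2.5. As a rank among all probes of the same array, which no scaling can move, Ppp2r2b stood at percentiles 61.4 to 62.2 in control, 44.0 to 49.6 in CS and 20.3 to 34.7 in PM2.5.

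In PM2.5 lungs the Ppp2r2b level fell from −1.35 ± 0.01 (SD, n = 3) to −2.59 ± 0.39 (SD, n = 3). The log2 change was −1.23 (SE 0.18, 95% interval −1.64 to −0.83, limma adjusted p = 0.00095), a 2.35-fold lower signal. It was 1 of 3 members called, where 56.8% of all probes tested passed in this comparison and 9.78% passed as lower. Its change stood at percentile 1.81 of the changes of all probes. Relative to the median of all probes the change was −1.74, and after quantile normalization it was −1.63 (limma adjusted p = 9.9e-05), a 3.09-fold lower signal. After quantile normalization 29.7% of the probes passed, 14.5% as higher and 15.2% as lower, while on the 75th percentile scale 47.1% passed as higher. When the control arrays, which share a slide, were averaged and entered as 1 sample, the change of −1.23 did not pass (limma adjusted p = 0.0659), and with quantile normalization as well it passed at −1.63 (adjusted p = 0.0159).

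In CS lungs the Ppp2r2b level fell to −1.90 ± 0.09 (SD, n = 3). The log2 change against control was −0.54 (SE 0.18, 95% interval −0.95 to −0.14, limma adjusted p = 0.0353), a 1.46-fold lower signal, beside 47.2% of all probes that passed, 38.7% as higher and 8.42% as lower. Its change stood at percentile 6.57 of all probes. The change was −0.99 relative to the median of all probes and −0.84 after quantile normalization (limma adjusted p = 0.0056), where 24.7% of probes passed, 11.8% as higher and 12.8% as lower. The call on the 75th percentile scale was near the threshold. It was lost when any 1 of the control or CS arrays was left out (change −0.59 to −0.50, adjusted p up to 0.0998), with slide as a random block (−0.53, adjusted p = 0.225) and with the control arrays as 1 sample (adjusted p = 0.280, or 0.173 with quantile normalization).

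Set against PM2.5 lungs, CS lungs had a Ppp2r2b level 0.69 log2 units higher (SE 0.18, 95% interval 0.29 to 1.1), which did not pass on the 75th percentile scale (limma adjusted p = 0.0571). On this scale 5.88% of all probes passed, 3.13% as higher and 2.75% as lower in CS. After quantile normalization the difference was 0.79 and passed (limma adjusted p = 0.0166), beside 8.73% of probes (5.18% higher and 3.55% lower in CS), and on the authors' log2 values it was 0.78 (adjusted p = 0.016). Between the 4 arrays on the shared slide the difference was 0.65 (95% interval 0.04 to 1.26, limma adjusted p = 0.229): CS 2 and CS 3 stood at −1.91 and −1.98, and PM2.5 1 and PM2.5 2 at −2.98 and −2.21. Without PM2.5 2, the highest of the PM2.5 arrays on this scale, the difference over all slides was 0.88 and passed (adjusted p = 0.0102). Of the 9 fits without an array only this 1 passed, and 6.84% of all probes passed in it. In a fit of the CS and PM2.5 arrays alone, the difference of 0.69 did not pass (limma adjusted p = 0.225). The groups of this comparison did not overlap for Ppp2r2b on any of the 7 scales computed (unscaled signal, 75th percentile, median, quantile, normexp, the authors' values and the rank within the array). On the 75th percentile scale 8.83% of all probes were higher in CS without overlap.

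**Figure D2:**
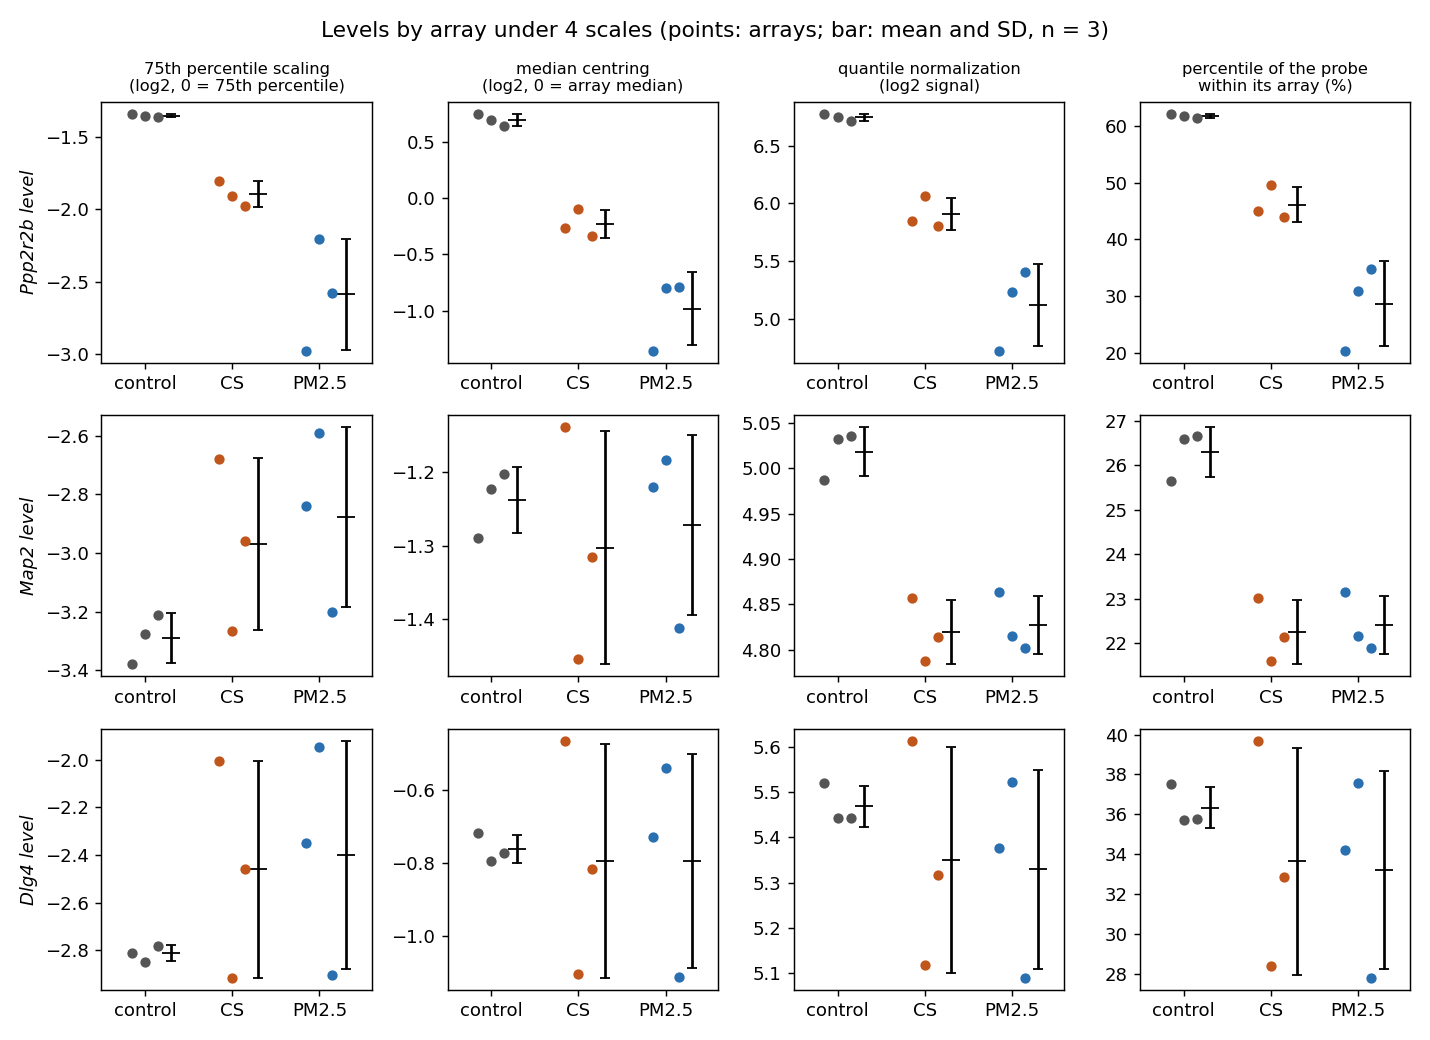
Level of each probe (rows) on each array under 4 scales (columns: log2 level relative to the 75th percentile, log2 level relative to the array median, log2 signal after quantile normalization, and percentile of the probe within its array), for control, CS and PM2.5. Points are arrays and bars are the mean and SD (n = 3). The order control, CS, PM2.5 without overlap holds for Ppp2r2b in all 4 columns, while the position of the control points of Map2 and Dlg4 against the exposed ones changes from column to column.

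Map2, the dendritic microtubule protein, did not pass in any comparison on the 75th percentile scale, and the sign of its difference from control turned with the scaling. Its signal before scaling was 33.7, 36.5 and 36.7 on control arrays, 34.1, 22.5 and 25.0 on CS arrays and 23.2, 29.9 and 29.2 on PM2.5 arrays. Before scaling, every PM2.5 array was below every control array, while CS 1 lay among the controls. Relative to the 75th percentile, the levels were −3.38, −3.28 and −3.21 in control, −2.68, −3.27 and −2.96 in CS and −2.84, −2.59 and −3.20 in PM2.5. On this scale the PM2.5 arrays were above all controls, PM2.5 3 by the least, and CS 2 lay within the control range. In PM2.5 55.9% of all probes were higher than in control without overlap on this scale.

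The log2 change of Map2 was 0.32 in CS (SE 0.19, 95% interval −0.11 to 0.75, limma adjusted p = 0.176) and 0.41 in PM2.5 (SE 0.19, 95% interval −0.02 to 0.84, limma adjusted p = 0.0901). Both values are below the shift of the median probe, and relative to it they were −0.13 and −0.10. After quantile normalization they were −0.20 (95% interval −0.39 to −0.01, limma adjusted p = 0.124) and −0.19 (95% interval −0.39 to 0.00, limma adjusted p = 0.125). The quantile levels were 4.99, 5.03 and 5.04 in control, 4.86, 4.79 and 4.81 in CS and 4.86, 4.82 and 4.80 in PM2.5, so that here all 6 exposed arrays were below all 3 controls. Without overlap, 22.4% of all probes were lower in CS and 22.5% in PM2.5 on that scale. The rank of Map2 within its array was also lower without overlap, at percentiles 25.7 to 26.6 in control, 21.6 to 23.0 in CS and 21.9 to 23.1 in PM2.5. Without PM2.5 3, the change in PM2.5 on the 75th percentile scale was 0.57 and passed (adjusted p = 0.0221). In that fit 66.3% of all probes passed, and the median change of all probes was 0.58, above that of Map2.

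Between the exposures, the Map2 difference (CS minus PM2.5) was −0.09 log2 units, with a 95% interval of −0.52 to 0.34 (limma adjusted p = 0.917). After quantile normalization it was −0.01 with an interval of −0.20 to 0.19. These intervals leave room for differences of those sizes in both directions. On the shared slide alone the difference was −0.40 (limma adjusted p = 0.306), with both CS arrays below both PM2.5 arrays.

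Dlg4, the postsynaptic scaffold, did not pass in any comparison on either scale. Its signal before scaling was 50.1, 49.2 and 49.5 on control arrays, 54.4, 28.7 and 35.4 on CS arrays and 32.6, 46.7 and 36.0 on PM2.5 arrays. The control arrays were nearly equal, the CS arrays spread to both sides of them and the PM2.5 arrays were below them. Relative to the 75th percentile, the levels were −2.81, −2.85 and −2.78 in control, −2.01, −2.92 and −2.46 in CS and −2.35, −1.95 and −2.90 in PM2.5. CS 2 and PM2.5 3 were below the controls and the other 4 exposed arrays above them.

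The log2 change of Dlg4 was 0.35 in CS (SE 0.27, 95% interval −0.26 to 0.96, limma adjusted p = 0.279) and 0.41 in PM2.5 (SE 0.27, 95% interval −0.20 to 1.02, limma adjusted p = 0.205). Relative to the median probe these were −0.09 and −0.10. After quantile normalization the changes were −0.12 (95% interval −0.46 to 0.22, limma adjusted p = 0.603) and −0.14 (95% interval −0.48 to 0.20, limma adjusted p = 0.526), with levels of 5.44 to 5.52 in control, 5.12 to 5.61 in CS and 5.09 to 5.52 in PM2.5. The groups overlapped on this scale and in the rank within the array, which was at percentiles 35.7 to 37.5 in control, 28.4 to 39.7 in CS and 27.8 to 37.6 in PM2.5. Without PM2.5 3, the change in PM2.5 on the 75th percentile scale was 0.66 and passed (adjusted p = 0.0398). In that fit 66.3% of all probes passed, and the median change of all probes was 0.58. The difference between CS and PM2.5 was −0.06 (95% interval −0.67 to 0.55, limma adjusted p = 0.971), 0.02 after quantile normalization (95% interval −0.32 to 0.36) and −0.54 on the shared slide alone (limma adjusted p = 0.248).

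**Figure D3:**
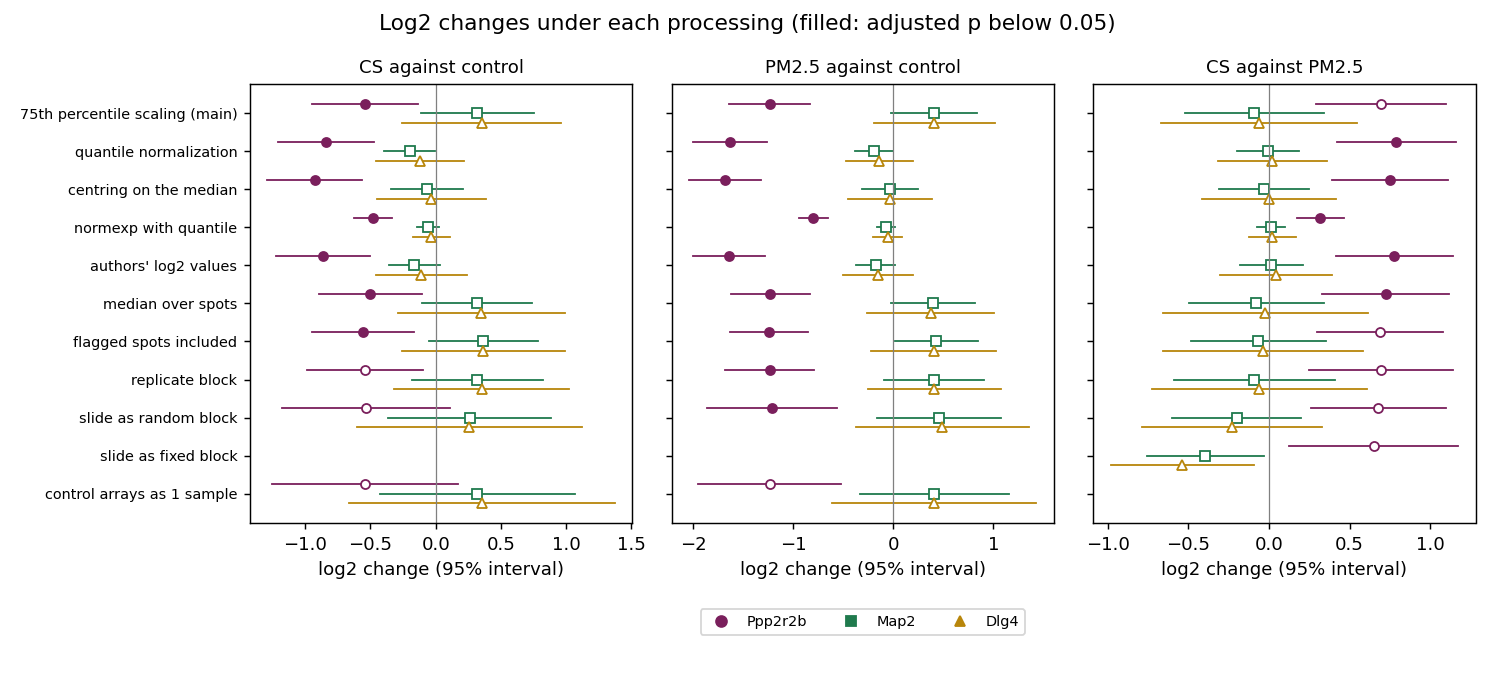
Log2 change of the 3 genes with its 95% interval (horizontal axis) under 11 ways of processing (rows), with 1 panel for each comparison of the groups. Filled marks have an adjusted p below 0.05 and open ones do not, and a row without marks could not be fitted or does not apply to that comparison. Ppp2r2b is left of 0 in every row against control (−0.93 to −0.48 for CS and −1.68 to −0.80 for PM2.5), while Map2 and Dlg4 lie on both sides of 0.

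On the 75th percentile scale, the exposed arrays stood in a similar order for Map2, for Dlg4 and for control probes that target no rat gene. The array carries control probes for the viral gene E1A, and their median signal was 28.7 to 43.4. Whether RNA that they bind was added to the samples was not checked here. On the 75th percentile scale the E1A level was −3.42 to −3.19 on control arrays, −2.92 to −2.37 on CS arrays and −3.00 to −2.05 on PM2.5 arrays, so that it too was higher in both exposed groups, without overlap. On this scale PM2.5 2 was the highest of the 6 exposed arrays for E1A, Map2 and Dlg4 alike. CS 1, PM2.5 1 and CS 3 followed, and CS 2 and PM2.5 3 were the lowest. Subtracting the same value per array from all 3 can itself make them move together. Before scaling, the order for Map2 and Dlg4 was CS 1, PM2.5 2, PM2.5 3, CS 3, PM2.5 1 and CS 2. E1A had the same order, except that PM2.5 2 stood above CS 1. How many other probes share these orders is not given here. Negative control probes had a median signal of 1.01 to 1.68. The part of signal that is not specific to the gene in the values of Map2 and Dlg4 was not tested.

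Log2 ratios of 2 probes on the same array do not depend on the scaling between arrays. Their absolute values also hold the brightness of each probe, so only their differences between groups are compared, over 18 exact two-sided permutation tests in which the smallest possible p is 0.1. The ratio of Ppp2r2b to Map2 was 2.04, 1.92 and 1.85 in control, 0.88, 1.36 and 0.98 in CS and −0.14, 0.38 and 0.62 in PM2.5. The 3 groups did not overlap, and how many other pairs of probes separate in this way is not given here. The difference from control was −0.86 log2 units in CS and −1.65 in PM2.5, and CS minus PM2.5 was 0.78 (exact permutation p = 0.1 for each, 0.15 after adjustment over the 18 tests).

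The ratio of Ppp2r2b to Dlg4 was 1.47, 1.49 and 1.42 in control, 0.20, 1.01 and 0.48 in CS and −0.63, −0.26 and 0.32 in PM2.5. Both exposed groups were below control without overlap (differences −0.89 and −1.65, exact permutation p = 0.1), while CS and PM2.5 overlapped through CS 1 and PM2.5 3 (difference 0.75, exact permutation p = 0.2). The ratio of Dlg4 to Map2 was 0.57, 0.43 and 0.43 in control, 0.67, 0.35 and 0.50 in CS and 0.49, 0.64 and 0.30 in PM2.5. All groups overlapped, with differences of 0.03 for CS against control, 0.00 for PM2.5 against control and 0.03 for CS against PM2.5 (exact permutation p = 0.8, 1 and 0.7). A ratio within an array shows unequal change only, so these values do not tell whether Map2 or Dlg4 RNA changed.

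Set against the E1A control probes of the same array, all 3 genes were lower in both exposed groups than in control without overlap. Against E1A 41.1% of all probes were lower in CS without overlap and 38.3% in PM2.5, and the median difference of all probes was −0.25 and −0.30. The members' differences were −1.23 in CS and −2.04 in PM2.5 for Ppp2r2b, −0.37 and −0.39 for Map2, and −0.34 and −0.39 for Dlg4 (exact permutation p = 0.1 for each, 0.15 after adjustment over the 18 tests). Between CS and PM2.5 these ratios differed by 0.80 for Ppp2r2b (exact permutation p = 0.1), 0.02 for Map2 (p = 0.9) and 0.05 for Dlg4 (p = 1).

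**Figure D4:**
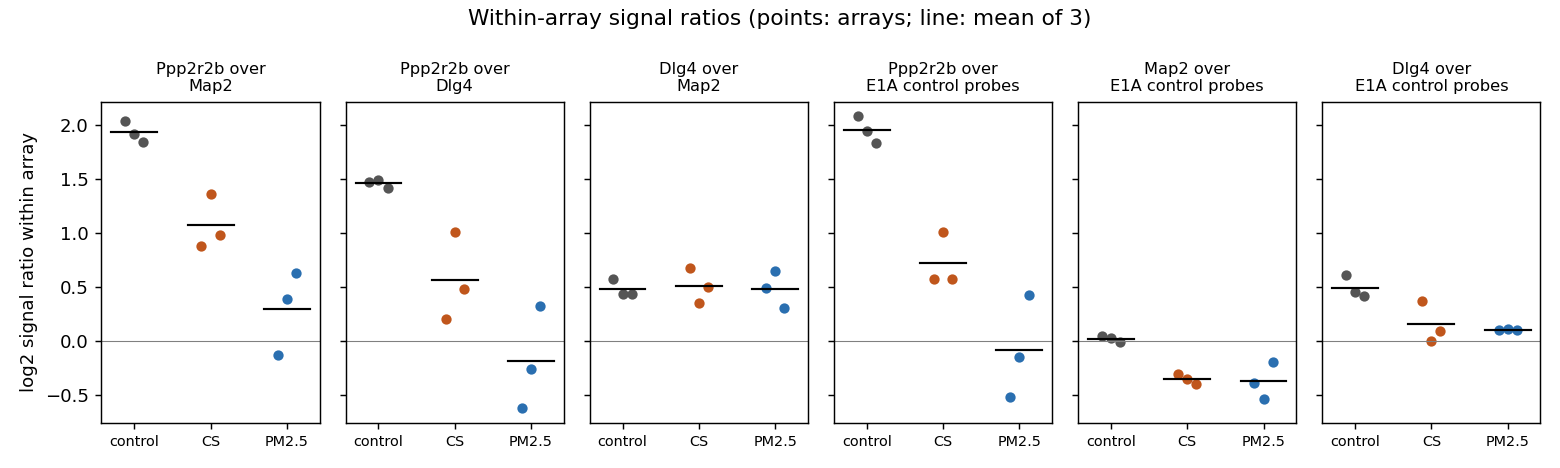
Log2 ratio of the signals of 2 probes within each array (vertical axis), for the 3 pairs of genes and for each gene over the E1A control probes, in control, CS and PM2.5. Points are arrays and lines are means of 3. The ratios with Ppp2r2b on top have means that are highest in control and lowest in PM2.5, the ratio of Dlg4 to Map2 stays between 0.30 and 0.67 on all arrays, and each gene over E1A is higher on every control array than on any exposed array.

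The genes with the most similar levels over the 9 arrays were sought among the 28 other protein-coding genes named by a catalogue probe, by the root-mean-square difference of levels centred on each gene's own mean. For Map2 the nearest was Dlg4, at 0.118 log2 units, followed by Odf2l, a gene related to a sperm tail protein (0.192), and P2rx2, an ATP-gated ion channel of sensory neurons (0.196). For Dlg4 the nearest were P2rx2 (0.112), Map2 (0.118) and Lhcgr, the receptor of luteinising hormone (0.243). After quantile normalization P2rx2 was still the nearest to Dlg4 (0.054), and Map2 and Dlg4 stood at 0.149 from each other. For Map2 the nearest were then Cse1l, a nuclear export factor (0.097), and Pdcd10 (0.123), ahead of Dlg4. P2rx2 itself did not pass against control, at 0.50 in CS and 0.57 in PM2.5 on the 75th percentile scale (limma adjusted p = 0.209 and 0.152) and −0.07 and −0.09 after quantile normalization.

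For Ppp2r2b the nearest were Ptk2b, a calcium-activated tyrosine kinase (0.274), Med16, which encodes a Mediator subunit (0.330), and Nlrp3, the inflammasome sensor (0.377). After quantile normalization they were Nlrp3 (0.303), Ptk2b (0.411) and Cyp2e1, a cytochrome P450 (0.415). These are larger distances than those of Map2 and Dlg4, but the measure also grows with the size of a gene's own changes. It therefore does not compare how alike the patterns are. Ptk2b fell in PM2.5 (−0.72, limma adjusted p = 0.002) but had a change of −0.07 in CS (adjusted p = 0.631), and Nlrp3 fell in PM2.5 (−0.53, adjusted p = 0.00878) with 0.17 in CS (adjusted p = 0.280). After quantile normalization Ptk2b had −0.77 in PM2.5 (limma adjusted p = 0.000928) and −0.07 in CS (adjusted p = 0.706). Nlrp3 then had −1.12 in PM2.5 (limma adjusted p = 9.3e-05), and its value in CS turned to −0.32, which did not pass (adjusted p = 0.064). When the log2 changes of the 29 named genes were ordered from the lowest on the 75th percentile scale, Ppp2r2b was number 6 in CS and number 2 in PM2.5, after Cyp2e1, and in CS against PM2.5 it was number 28, before Nlrp3. After quantile normalization it was number 4 in CS, number 1 in PM2.5 and again number 28 in CS against PM2.5. Map2 and Dlg4 were numbers 19 and 20 in CS and 21 and 22 in PM2.5 on the 75th percentile scale, and 17 and 18 in CS and 16 and 19 in PM2.5 after quantile normalization. None of the 42 other genes of the neuronal cytoskeleton and synapse and none of the 19 other subunits of protein phosphatase 2A listed for comparison was matched to a named probe, so whether those genes changed was not analysed here.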

How the data were processed

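The deposited scanner files give each spot's intensity on a linear scale, extracted per the file headers by Feature Extraction 11.0.1.1 (Agilent) in a single colour, with background subtracted and no normalization between arrays. Flags of 0 or 1 for outlier spots and for spots well above background are other values of the same deposited files. The series table holds 38862 rows of the authors' log2 values, whose columns all had a median of 6.03 and correlated with the scanner values at 0.997 to 0.999 across probes; its normalization is not stated.

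From the intensities, log2 values of unflagged spots were averaged per probe and each array's 75th percentile was subtracted. Probes well above background on all 3 arrays of a group, with a value on every array, were kept (37643 of 38804). They were fitted in 1 model of the 9 arrays by limma's lmFit and eBayes (version 3.58.1, R 4.3.3), two-sided, with Benjamini-Hochberg adjustment over all probes and a threshold of 0.05. The fit was also run on simulated data, with independent noise of 1 SD per probe in all groups and no slide effect. That run does not test the unequal spread or the slides of these arrays. The alternatives tried were centring on the median, quantile normalization, normexp (offset 50, on the median spot signal) with quantile, the authors' log2 values, other filters, the median over spots, flagged spots, trended and robust variance, array weights (gene by gene), replicate number or slide as a block, only the groups compared, the shared slide alone, the control arrays as 1 sample and leaving out each array. Quantile normalization with the control arrays as 1 sample was added after seeing the data.

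The genes named are the members, any member of the comparison lists that a probe names, and for each member the 3 named genes of most similar level. The members and lists were chosen with earlier results of these data known. Probes were named through a RefSeq table by accession (30 of 50 catalogue probes matched, 29 to protein-coding genes); whether other probes measure the same genes is not known. Arrays give no read depth, so the 3 arrays per group limit the precision.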

Additional observations from a re-analysis of the deposited data

How the results depend on the processing

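The direction of Ppp2r2b held in all 15 alternatives and in all 9 fits without an array, in each comparison. Against control in CS it was no longer past the threshold with the replicate block (−0.54, limma adjusted p = 0.0611), slide as random block (−0.53), the control arrays as 1 sample (−0.54) and that with quantile normalization (−0.84), and leaving out an array gave −0.59 to −0.50. In PM2.5 it failed only with the control arrays as 1 sample (−1.23), and leaving out an array gave −1.42 to −1.04. CS against PM2.5 passed in 7 alternatives: quantile (0.79), median centring (0.75), normexp (0.32), the authors' values (0.78), median over spots (0.73), trended and robust variance (0.69) and array weights (0.79), and leaving out an array gave 0.50 to 0.88. Over the 15 alternatives the limma adjusted p of Ppp2r2b was 0.000936 to 0.280 in CS, 4.2e-05 to 0.0659 in PM2.5 and 0.015 to 0.229 for CS against PM2.5.

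Map2 against control turned its sign under quantile (−0.20 in CS, −0.19 in PM2.5, with the control arrays as 3 samples or as 1), median centring (−0.065 and −0.034), normexp (−0.060 and −0.072) and the authors' values (−0.16 and −0.18). Dlg4 did so in the same settings, at −0.12 and −0.14 (quantile, both ways), −0.033 and −0.032 (median centring), −0.032 and −0.053 (normexp) and −0.11 and −0.15 (authors' values). With array weights Map2 passed as higher in CS (0.34) and PM2.5 (0.43), and Dlg4 in CS (0.38). In that fit 75.4% of all probes passed in CS and 67.4% in PM2.5. The median changes of all probes were 0.46 and 0.51, above those of both genes. Over the 15 alternatives the limma adjusted p was 0.0185 to 0.718 for Map2 in CS, 0.0259 to 0.847 for Map2 in PM2.5, 0.0302 to 0.909 for Dlg4 in CS and 0.0532 to 0.903 for Dlg4 in PM2.5. Leaving out an array gave 0.18 to 0.47 and 0.27 to 0.57 for Map2 in CS and PM2.5 and 0.13 to 0.58 and 0.19 to 0.66 for Dlg4. In CS against PM2.5, Map2 turned to 0.012 under normexp and 0.014 under the authors' values, and Dlg4 to 0.020 under quantile, 0.021 under normexp and 0.042 under the authors' values. Leaving out an array gave −0.25 to 0.059 for Map2 and −0.31 to 0.17 for Dlg4, with positive values without CS 2 (0.059 and 0.17) or PM2.5 2 (0.053 and 0.17). The cause of these turns was not tested.

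The number of probes past the threshold was 17756 for CS, 21392 for PM2.5 and 2214 for CS against PM2.5. For CS and PM2.5 it was 9289 and 11177 with quantile, 9094 and 12524 with median centring, 9245 and 10798 with normexp, 9326 and 11229 with the authors' values, 166 and 1423 with the control arrays as 1 sample, 547 and 2277 with quantile as well, and 2371 and 7901 with slide as a random block. It was 28377 for CS with array weights. CS against PM2.5 gave 3729 with normexp, 625 in a fit of these groups alone, 383 on the shared slide and 1204 with the replicate block. Leaving out an array gave 8007 to 21898 for CS, 13269 to 24947 for PM2.5 and 1332 to 2575 for CS against PM2.5. Deviations from the group means correlated at −0.45 to 0.18 between same-numbered arrays and −0.61 to 0.59 between others. The deviations of 3 arrays from their own mean constrain each other. These values therefore cannot decide whether same-numbered arrays are pairs. Apart from Ppp2r2b in CS, the replicate block changed no call of the 3 genes. The signal of Map2, at 2.92 to 4.91 times the local background, limits what can be read from it.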
